A study of Mus musculus with 28 samples.

Results

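The platelet-derived growth factor (PDGF) family was followed across mammary cell populations through 7 genes, the ligands Pdgfa, Pdgfb, Pdgfc and Pdgfd, the receptors Pdgfra and Pdgfrb, and the receptor-like gene Pdgfrl. They were taken by gene symbol from the 50600 genes counted, and all 7 were found and passed the filter on low counts in every comparison. RNA was sequenced from cells sorted from the mammary glands of 7 adult female PdgfrαCre R26mTmG mice on a C57BL/6 background, of which 4 were left untreated and 3 received estrogen and progesterone (E+P), the hormones that drive alveolar growth. In these mice a Cre recombinase under the Pdgfra promoter switches a cell, and all progeny of that cell, permanently from tdTomato to GFP, and all 8 groups carry both alleles. Each mouse gave 4 populations, GFP+ and tdTomato+ stroma (CD49f- EpCAM-) and GFP+ and tdTomato+ luminal cells (CD49f lo EpCAM+), all sorted as negative for CD31, CD45 and Ter119, which makes 28 libraries. GFP records Cre activity in a cell or its ancestors and not present Pdgfra transcription, and the tracing was constitutive, so that GFP+ cells include those labeled at any earlier stage.

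PDGFs are secreted dimers that act through a pair of receptor tyrosine kinases, which dimerize on ligand binding and signal through PI3 kinase, phospholipase C gamma and the Ras pathway. PDGF-A, PDGF-B and PDGF-C bind receptor α, while PDGF-B and PDGF-D bind receptor β. PDGF-A and PDGF-B are cleaved inside the cell by proprotein convertases, whereas PDGF-C and PDGF-D are secreted with an N-terminal CUB domain that must be removed by a protease outside the cell. In many organs, epithelium or endothelium makes the ligand and mesenchyme or pericytes carry the receptor, and receptor α is a common marker of fibroblasts and adipocyte progenitors while receptor β marks pericytes as well as fibroblasts.

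Total counts per library ran from 8623383 to 24583803, with a median of 15329083.5, so that 3 counts, taken as the limit of detection, correspond to 0.116 to 0.302 CPM, the counts of a gene relative to the TMM-scaled library size. Luminal markers (Krt8, Krt18, Krt19, Epcam, Cldn3 and Cldn4) summed to 3832 to 7096 CPM in luminal libraries, to 4.13 to 83.1 CPM in GFP+ stroma and to 3.49 to 455 CPM in tdTomato+ stroma. Fibroblast markers summed to 30479 to 59612 CPM in GFP+ stroma and to 1756 to 6327 CPM in tdTomato+ stroma. The tdTomato+ stroma held in addition pericyte and smooth muscle markers at 6937 to 10017 CPM and skeletal muscle markers at 1369 to 13047 CPM, against at most 313 and 1.54 CPM in GFP+ stroma, so this population is a mixture of cell types. In sorted bulk populations, fewer cells of a type and less RNA per cell cannot be told apart.

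Pdgfa (ENSMUSG00000025856.15, GRCm38 chromosome 5, 138976014 to 138997370) was highest in tdTomato+ stroma in 7 of 7 mice and lowest in GFP+ stroma. It read 87.2, 71.7, 73.7 and 53.6 CPM in the tdTomato+ stroma of the 4 untreated mice and 119, 83.1 and 82.6 CPM in that of the 3 E+P mice. In the GFP+ stroma of these mice Pdgfa read 1.14, 1.16, 1.65 and 0.642 CPM untreated and 2.11, 1.58 and 2.95 CPM after E+P, so the stromal populations were far apart in every mouse. The log2 difference, GFP+ minus tdTomato+ stroma, was -5.68 ± 0.20 (SE; adjusted p = 1.28e-12, edgeR quasi-likelihood test), and the within-mouse difference lay between -6.13 and -4.75 (exact permutation p = 0.0156, two-sided, the smallest that 7 mice allow). In this comparison 42% of all genes tested passed adjusted p < 0.01, as did 5 of the 7 PDGF genes. Pdgfra, whose promoter drives the Cre that sets the sort, is among the 5.

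Luminal cells held intermediate Pdgfa levels. GFP+ luminal cells read 15.1, 13.3, 13.1 and 12.7 CPM untreated and 12.6, 12.4 and 9.41 CPM after E+P. tdTomato+ luminal cells read 13.2, 15.8, 18.8 and 10.8 CPM untreated and 21.8, 11.4 and 14.2 CPM after E+P, a range that overlapped that of GFP+ luminal cells (log2 difference, GFP+ minus tdTomato+, -0.31, adjusted p = 0.127, edgeR). Pdgfa ran in opposite directions among GFP+ and tdTomato+ cells. It was higher in stroma than in luminal cells among tdTomato+ cells (log2 2.44 ± 0.17, adjusted p = 4.62e-12) and lower in stroma among GFP+ cells (-2.94 ± 0.20, adjusted p = 1.26e-12), and the difference between these differences was -5.38 ± 0.26 (adjusted p = 4.72e-14, all by edgeR). Of all genes, 59.3% passed for stroma minus luminal in tdTomato+ cells and 52.5% in GFP+ cells, as did 6 and 7 of the 7 PDGF genes. Across both lineages together the stroma minus luminal difference was -0.25 ± 0.13 and did not pass (adjusted p = 0.0826, edgeR), but it passed at -0.54 when libraries were scaled by total count alone (adjusted p = 0.000452, edgeR). The exons of Pdgfa share 813 bases with the antisense gene 6330403L08Rik, whose counts ran from 0 to 393 and amounted to 11.4 to 23.8% of those of Pdgfa in tdTomato+ stroma and to between 0 and 103% in GFP+ stroma. How strands were assigned in counting is not given in the sources used here, so some reads of these genes may not be separable, and the low Pdgfa level of GFP+ stroma is the value most exposed to this.

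Pdgfb (ENSMUSG00000000489.6, chromosome 15, 79995874 to 80014977) was a luminal gene that rose with E+P. GFP+ luminal cells held 10.1, 24.1, 12.6 and 22.7 CPM untreated and 41.3, 57.7 and 95.0 CPM after E+P. tdTomato+ luminal cells held 7.64, 11.1, 13.7 and 11.01 CPM untreated and 24.6, 27.99 and 32.6 CPM after E+P. In both luminal populations every E+P library lay above every untreated library. The rise was 3.73-fold in GFP+ cells (log2 1.90 ± 0.33, adjusted p = 0.00263, edgeR) and 2.67-fold in tdTomato+ cells (log2 1.42 ± 0.33, adjusted p = 0.00678, edgeR). Of all genes tested, 5.96% passed in GFP+ and 14.1% in tdTomato+ luminal cells, against 1 and 2 of the 7 PDGF genes. The exact permutation test over mice gave p = 0.0286 in each population, the smallest that 4 against 3 mice allow. The E+P and untreated libraries did not overlap for 5 of the 7 PDGF genes in GFP+ luminal cells (24.3% of all genes), 3 in tdTomato+ luminal cells (31.4%), 3 in GFP+ stroma (12.2%) and 0 in tdTomato+ stroma (10.1%).

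Both rises lay near the threshold and kept their size when 1 mouse was left out, at log2 1.54 to 2.12 in GFP+ and 1.28 to 1.54 in tdTomato+ luminal cells. In GFP+ luminal cells the rise missed the threshold without E+P mouse 2 or 3 (adjusted p = 0.0166 and 0.016, edgeR) and with only these 2 groups in the model (adjusted p = 0.0201). In tdTomato+ luminal cells it missed the threshold whichever mouse was left out (adjusted p = 0.0108 to 0.0314, edgeR), and also with scaling by library size only (0.011), with no low-count filter (0.0246) and with all 8 groups in the model (0.0341). The size of the rise did not differ detectably between the luminal populations (difference 0.49 on the log2 scale, adjusted p = 0.593, edgeR), a contrast in which 2.27% of all genes and 0 of the 7 passed. The endothelial marker sum, from a cell type known to make PDGF-B, was also higher in tdTomato+ luminal cells after E+P, at 219 to 241 against 31.1 to 134 CPM, and it rested on Vwf (mean 226 against 58.8 CPM), while Pecam1 and Cdh5, which define endothelium, stood at 0.852 and 0.409 CPM after E+P. In GFP+ luminal cells the same sum was 8.32 to 30.4 CPM after E+P and 5.64 to 20.6 CPM untreated. Markers of basal epithelium (Krt5, Krt14, Krt17, Trp63 and Oxtr) were higher after E+P in both luminal populations without overlap, with sums of 117 to 132 against 41.6 to 85.5 CPM in GFP+ and 35.4 to 62.5 against 7.60 to 18.3 CPM in tdTomato+ luminal cells. The means of 4 of these 5 genes were higher after E+P in each population, while Krt5, a defining basal keratin, had means of at most 0.470 CPM in every luminal group. The part of these markers in the Pdgfb rise was not tested.

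GFP+ luminal cells held more Pdgfb than tdTomato+ luminal cells of the same mouse in 6 of 7 mice (log2 0.91 ± 0.23, adjusted p = 0.00598, edgeR), where 34.7% of all genes and 4 of the 7 PDGF genes passed. This call was lost without untreated mouse 2 or 4 or E+P mouse 2 or 3 (adjusted p = 0.0208 to 0.0222), by limma-voom (0.0117), with no low-count filter (0.0243) and with all 8 groups in the model (0.0264), while the log2 difference stayed between 0.80 and 1.04. In stroma, Pdgfb was at the limit of detection in GFP+ cells, with 0 CPM in 3 of 7 libraries and at most 0.697 CPM. tdTomato+ stroma held 3.04, 2.80, 2.92 and 0.388 CPM untreated and 3.88, 2.57 and 3.36 CPM after E+P, above the GFP+ stroma of the same mouse in 7 of 7 mice (log2 GFP+ minus tdTomato+, -4.07 ± 0.75, adjusted p = 0.000191, edgeR). Luminal cells held more Pdgfb than stroma among both GFP+ and tdTomato+ cells, with a stroma minus luminal log2 difference of -7.65 ± 0.51 and -2.67 ± 0.36, and these differences differed from each other (-4.98 ± 0.63, adjusted p = 5.68e-07, edgeR). These sizes rest on the 0 to 9 counts of GFP+ stroma, and without untreated mouse 2, which held the 9, the 3 differences that involve it became -5.32 against tdTomato+ stroma, -8.86 against GFP+ luminal cells and -6.15 between lineages, all still past the threshold. In tdTomato+ stroma, 6 luminal markers stood at a median of 3.11% of their level in tdTomato+ luminal cells untreated and 0.126% after E+P. Pdgfb stood there at 23.2% and 10.3%. The endothelial markers Pecam1 and Cdh5 averaged 17.0 and 21.4 CPM in untreated tdTomato+ stroma and 38.4 and 75.1 CPM after E+P. In GFP+ stroma their means were at most 2.24 CPM. Tek, of the same list, was higher in GFP+ stroma, at 190 against 34.2 CPM untreated. The part of luminal and endothelial cells in these Pdgfb values was not tested.

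**Figure D1:**
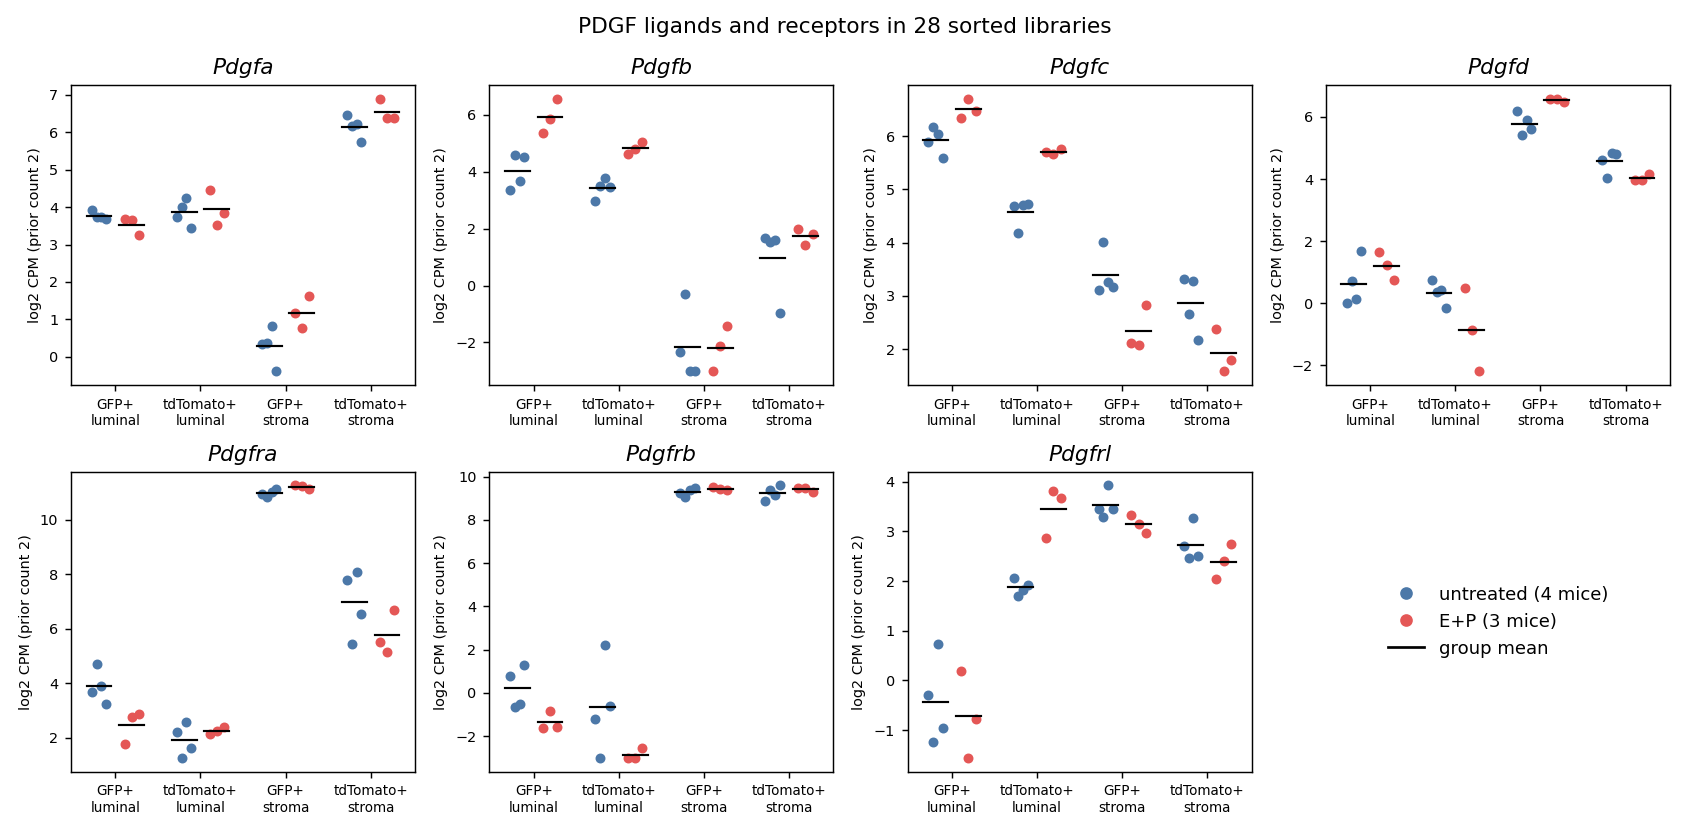
Level of each of the 7 PDGF genes in each of the 28 libraries, as log2 CPM with a prior count of 2, by population and treatment, with 1 point per mouse and a line at the group mean. Pdgfa of GFP+ stroma lies lowest, from 0.642 to 2.95 CPM before the log, and that of tdTomato+ stroma highest, from 53.6 to 119 CPM, while Pdgfb and Pdgfc of both luminal populations lie higher after E+P than untreated.

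Pdgfc (ENSMUSG00000028019.9, chromosome 3, 81036416 to 81214040) was highest in GFP+ luminal cells in 7 of 7 mice. GFP+ luminal cells held 59.4, 71.5, 66.0 and 48.1 CPM untreated and 80.5, 104 and 88.6 CPM after E+P. tdTomato+ luminal cells held 25.8, 17.9, 26.0 and 26.3 CPM untreated and 51.8, 50.5 and 54.3 CPM after E+P. Within mice, GFP+ exceeded tdTomato+ luminal cells 7 times of 7 (log2 1.05 ± 0.11, adjusted p = 6.18e-06, edgeR), and this call held under every alternative tried.

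With E+P, Pdgfc rose 2.22-fold in tdTomato+ luminal cells (log2 1.15 ± 0.15, adjusted p = 0.000172, edgeR), a call that held under every alternative and without any 1 mouse. The basal marker sums of these libraries, given above, also did not overlap between treatments, with Trp63 at a mean of 1.15 CPM untreated and 22.2 CPM after E+P, and their part in the Pdgfc rise was not tested. In GFP+ luminal cells the groups did not overlap either, but the difference of 0.57 ± 0.15 missed the threshold (adjusted p = 0.0235, edgeR) and passed by DESeq2 (adjusted p = 0.00694). The responses of the luminal populations were not shown to differ (-0.58, adjusted p = 0.133, edgeR). GFP+ stroma held 8.48, 16.0, 9.39 and 8.90 CPM of Pdgfc untreated and 4.22, 4.12 and 6.99 CPM after E+P, and tdTomato+ stroma held 9.88, 6.23, 9.62 and 4.37 CPM untreated and 5.05, 2.87 and 3.36 CPM after E+P. The E+P libraries lay below all untreated ones in GFP+ stroma and overlapped them in tdTomato+ stroma. Neither stromal difference passed the threshold (-1.05 ± 0.35, adjusted p = 0.29, and -0.99 ± 0.36, adjusted p = 0.178, edgeR). Only 0.231% of all genes passed for E+P in GFP+ stroma and 0.124% in tdTomato+ stroma, with 0 of the 7 PDGF genes in either. At an unadjusted p under 0.05 stood 3 of the 7 in each, against 1429 of 17783 genes in GFP+ stroma and 2780 of 17783 in tdTomato+ stroma. DESeq2 called 192 and 384 genes there, against 41 and 22 by edgeR.

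The E+P response of Pdgfc nevertheless differed between stroma and luminal cells among tdTomato+ cells, by -2.13 ± 0.37 (adjusted p = 0.000458, edgeR), where 4.65% of all genes passed as did 1 of the 7, Pdgfc. Among GFP+ cells the same difference was -1.63 ± 0.36 and missed the threshold (adjusted p = 0.0131, edgeR), where 0.92% of genes passed. The luminal marker sum of stroma was also lower on average after E+P, with ranges that overlapped between treatments in tdTomato+ stroma. It was 18.5 to 83.1 CPM untreated and 4.13 to 5.07 CPM after E+P in GFP+ stroma, and 18.2 to 455 and 3.49 to 37.6 CPM in tdTomato+ stroma. Pdgfc in GFP+ stroma was 14.2 to 22.3% of its level in GFP+ luminal cells of the same mouse untreated and 3.95 to 7.88% after E+P, where the luminal markers had medians of 0.379% and 0.0987%. In tdTomato+ stroma Pdgfc was 16.6 to 38.4% of its level in tdTomato+ luminal cells untreated and 5.68 to 9.75% after E+P. The luminal markers had medians there of 3.11% and 0.126%. The part of these markers in the result was not tested. The stroma to luminal difference of Pdgfc itself was -3.33 ± 0.20 in GFP+ and -2.73 ± 0.19 in tdTomato+ cells, and these were not shown to differ (-0.60, adjusted p = 0.0616, edgeR).

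Pdgfd (ENSMUSG00000032006.15, chromosome 9, 6168584 to 6378850), whose product binds receptor β, was the only ligand highest in GFP+ stroma, and was so in 7 of 7 mice. GFP+ stroma held 73.6, 42.5, 59.5 and 49.3 CPM untreated and 94.8, 96.4 and 89.7 CPM after E+P. tdTomato+ stroma held 24.3, 16.2, 28.5 and 28.1 CPM untreated and 15.7, 15.7 and 17.7 CPM after E+P. The difference between the stromal populations was 1.85 ± 0.14 on the log2 scale (adjusted p = 8.06e-09, edgeR). Luminal cells held at most 3.06 CPM, and stroma exceeded luminal cells by log2 5.28 ± 0.30 in GFP+ and 4.66 ± 0.31 in tdTomato+ cells.

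After E+P, Pdgfd lay above all untreated libraries in GFP+ stroma, and its difference of 0.74 ± 0.19 missed the threshold (adjusted p = 0.098, edgeR; exact permutation p = 0.0571) except with no low-count filter (adjusted p = 0.00711, edgeR). In tdTomato+ stroma the difference was -0.57 ± 0.20 (adjusted p = 0.169, edgeR), with ranges that overlapped. The responses of the stromal populations differed by 1.31 ± 0.28, which also missed the threshold (adjusted p = 0.0579, edgeR), where 0.045% of genes passed. This difference was called by DESeq2 (adjusted p = 0.0041) and by edgeR with no low-count filter (adjusted p = 0.000265).

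Proximal sequence was read for Pdgfc, whose E+P response in tdTomato+ luminal cells held under every alternative, and, for contrast, for the stromal genes Pdgfd and Pdgfra. Pdgfb, Pdgfrb and Pdgfrl had no entry in the promoter set used. Each sequence is the 250 bases before the RefSeq transcription start (GRCm38.p6, plus strand), with the bases that match a searched motif in capitals, at chr3:81036166-81036415 for Pdgfc, chr9:6168236-6168485 for Pdgfd and chr5:75152001-75152250 for Pdgfra.
Pdgfc: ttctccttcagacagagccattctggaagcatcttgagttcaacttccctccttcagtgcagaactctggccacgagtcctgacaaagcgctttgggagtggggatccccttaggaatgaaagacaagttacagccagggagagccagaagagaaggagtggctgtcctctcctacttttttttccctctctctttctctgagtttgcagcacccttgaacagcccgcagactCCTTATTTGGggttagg
Pdgfd: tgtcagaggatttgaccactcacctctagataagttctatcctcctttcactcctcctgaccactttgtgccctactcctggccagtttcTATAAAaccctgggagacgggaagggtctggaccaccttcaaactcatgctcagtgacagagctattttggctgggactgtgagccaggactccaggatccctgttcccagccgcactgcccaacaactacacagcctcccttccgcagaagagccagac
Pdgfra: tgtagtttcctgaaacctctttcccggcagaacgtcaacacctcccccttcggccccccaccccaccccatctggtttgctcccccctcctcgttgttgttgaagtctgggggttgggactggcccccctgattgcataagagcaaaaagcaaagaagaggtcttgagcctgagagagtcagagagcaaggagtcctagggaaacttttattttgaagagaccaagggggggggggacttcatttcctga
The Pdgfc stretch holds a CArG box, the site of serum response factor, 17 bases before the start, which 1.47% of 32851 promoters of this length hold. The Pdgfd stretch holds TATAAA 160 bases before the start, a match found in 12.4% of promoters, and the Pdgfra stretch holds no searched motif. The other motifs searched on both strands were CCAAT (33.8% of promoters), GGGCGG (32.7%), and the full palindromic elements of estrogen receptor, GGTCA and TGACC with 3 bases between them (0.0639%), and of progesterone receptor, AGAACA and TGTTCT with 3 bases between them (0.00913%), and none of them is in these 3 windows. GC content was 50.8%, 53.6% and 54.4%, against a median of 52.4% over all promoters.

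Of the receptors, Pdgfra (ENSMUSG00000029231.15, chromosome 5, 75152292 to 75198215) is bound to the sort, since its promoter drives the Cre that sets GFP, so its stromal difference is a check of the labels and no finding. GFP+ stroma held 1992, 1822, 2080 and 2212 CPM untreated and 2455, 2405 and 2230 CPM after E+P. tdTomato+ stroma held 223, 43.3, 273 and 93.0 CPM untreated and 45.2, 35.3 and 103 CPM after E+P, so every GFP+ library lay above every tdTomato+ library and the labels held in 7 of 7 mice. Pdgfra of tdTomato+ stroma was 2.38 to 13.1% of the level in GFP+ stroma of the same mouse untreated and 1.47 to 4.63% after E+P, and 7 fibroblast markers stood there at medians of 9.52% and 3.22%. With E+P the difference was 0.23 in GFP+ stroma (adjusted p = 1, edgeR) and -1.36 ± 0.54 in tdTomato+ stroma (adjusted p = 0.251, edgeR). The latter ran from -1.98 to -0.97 when 1 mouse was left out, and it was called only with no low-count filter (adjusted p = 2.71e-12, edgeR), as was its contrast with GFP+ stroma (adjusted p = 9.79e-09, against 0.486).

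In luminal cells Pdgfra was low. GFP+ luminal cells held 12.7, 25.9, 14.9 and 9.35 CPM untreated and 3.26, 6.67 and 7.12 CPM after E+P, with no overlap between the treatments. tdTomato+ luminal cells held 4.49, 2.25, 5.85 and 2.99 CPM untreated and 4.25, 4.62 and 5.09 CPM after E+P. The E+P difference of -1.46 ± 0.38 in GFP+ luminal cells missed the threshold by edgeR (adjusted p = 0.0215) and passed by DESeq2 (adjusted p = 0.0018), and its contrast with tdTomato+ luminal cells missed it as well (-1.75, adjusted p = 0.0672, edgeR). GFP+ luminal cells exceeded tdTomato+ luminal cells in 6 of 7 mice (log2 1.13 ± 0.27, adjusted p = 0.00325, edgeR), a call lost without E+P mouse 2 or 3 (adjusted p = 0.0223 and 0.0198) and with all 8 groups in the model (0.0134). Pdgfra in GFP+ luminal cells amounted to 0.423 to 1.42% of the level in GFP+ stroma untreated and 0.133 to 0.319% after E+P. The 7 fibroblast markers stood at medians of 0.119% and 0.031% and reached at most 0.26% and 0.0957%. The part of stromal cells or RNA in luminal Pdgfra was not tested. By droplet digital PCR on sorted fractions of lineage tracing mice, the paper detected Pdgfra in stroma only.

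Pdgfrb (ENSMUSG00000024620.11, chromosome 18, 61045150 to 61085061), the receptor of PDGF-B and PDGF-D, was stromal, with ranges that overlapped between the stromal populations. GFP+ stroma held 599, 530, 659 and 706 CPM untreated and 735, 681 and 661 CPM after E+P. tdTomato+ stroma held 467, 672, 561 and 772 CPM untreated and 704, 717 and 617 CPM after E+P. GFP+ exceeded tdTomato+ stroma in 4 of 7 mice, within-mouse differences ran from -0.34 to 0.36 on the log2 scale, and the estimate was 0.00 ± 0.11 (adjusted p = 0.993, edgeR), with a sign that turned under other scalings. The fibroblast and pericyte marker sums given above did not overlap between these populations. Stroma exceeded luminal cells by log2 10.97 ± 0.45 (adjusted p = 6.9e-16, edgeR), in a comparison in which 63.5% of all genes and 6 of the 7 PDGF genes passed.

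Luminal Pdgfrb was at or under 2.28 CPM in 13 of 14 libraries. The exception was the tdTomato+ luminal library of untreated mouse 3, at 4.55 CPM, whose fibroblast marker sum of 69.4 CPM was also the highest of that population. The E+P difference in tdTomato+ luminal cells, -5.73 ± 1.69, did not pass (adjusted p = 0.0228, edgeR) and rested on libraries near the limit of detection.

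Pdgfrl (ENSMUSG00000031595.9, chromosome 8, 40926212 to 40990785) encodes a secreted protein that resembles the extracellular part of a PDGF receptor and has no kinase. It had a pattern of its own, with a marked gap between the luminal populations. tdTomato+ luminal cells held 4.03, 3.10, 3.40 and 3.68 CPM untreated and 7.21, 13.8 and 12.6 CPM after E+P. GFP+ luminal cells held 0.697, 0.302, 1.54 and 0.393 CPM untreated and 1.02, 0.215 and 0.458 CPM after E+P. GFP+ lay below tdTomato+ luminal cells in 7 of 7 mice (log2 -3.30 ± 0.36, adjusted p = 8.3e-06, edgeR), which held under every alternative.

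In tdTomato+ luminal cells every E+P library lay above every untreated library for Pdgfrl. The difference of 1.68 ± 0.43 just missed the threshold (adjusted p = 0.0109, edgeR) and was called by DESeq2 (adjusted p = 0.000579) and limma-voom (adjusted p = 0.000393). GFP+ stroma held 7.72 to 15.1 CPM and tdTomato+ stroma 3.98 to 9.49 CPM, with GFP+ higher in 7 of 7 mice (log2 0.75 ± 0.19, adjusted p = 0.00321, edgeR), a call lost without E+P mouse 1 or 2 (adjusted p = 0.0302 and 0.0163) and with all 8 groups in the model (0.0149). As with Pdgfa, GFP+ and tdTomato+ cells differed in the stroma minus luminal contrast (4.04 ± 0.40, adjusted p = 7.77e-09, edgeR). The contrast was -0.09 in tdTomato+ cells (adjusted p = 0.764, edgeR), while GFP+ stroma exceeded GFP+ luminal cells by 3.94 ± 0.31. In all, the contrast of 4 of the 7 PDGF genes differed in this way, against 33.2% of all genes. Pdgfra, whose difference is tied to the sort, is among the 4.

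**Figure D2:**
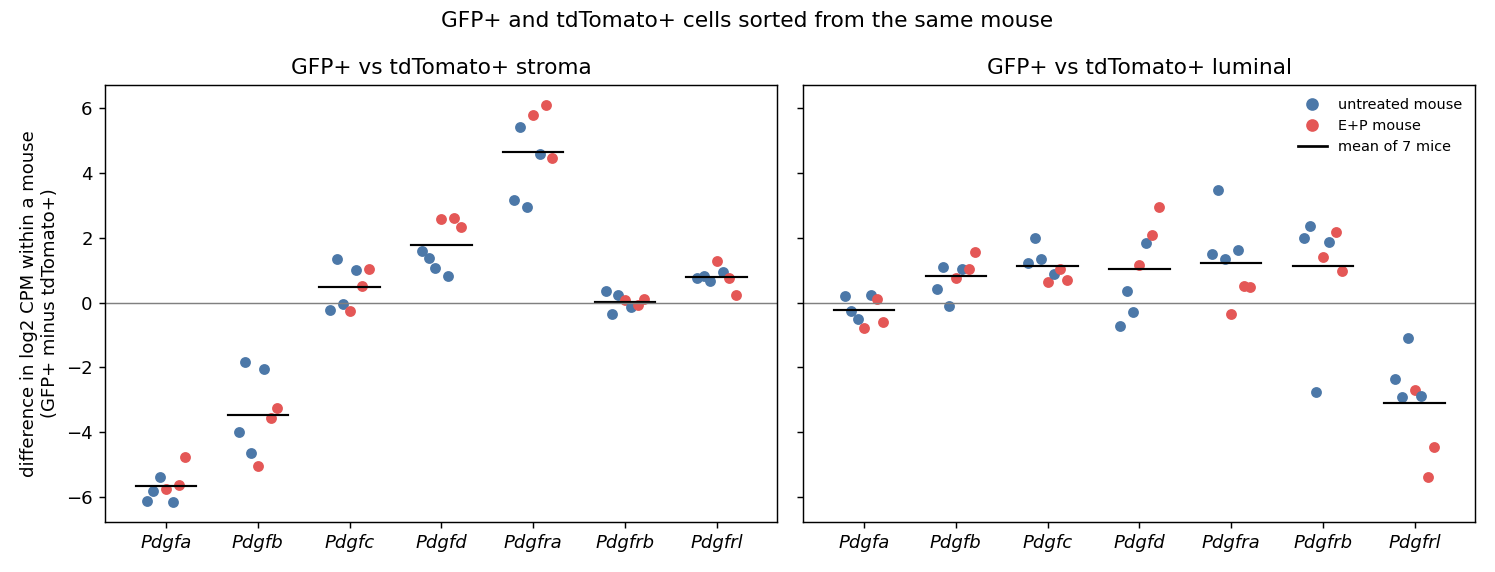
Within-mouse log2 differences in CPM, GFP+ minus tdTomato+, for each PDGF gene in stroma and in luminal cells, with 1 point per mouse, coloured by treatment, a black bar at the mean of 7 mice and a grey line at no difference. All 7 mice lie below the grey line for Pdgfa in stroma and Pdgfrl in luminal cells, and above it for Pdgfc in luminal cells, while Pdgfrb of stroma falls on both sides.

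To set ligands beside each other, counts were divided by exonic length, so that the following values are levels in CPM per kilobase. In untreated GFP+ luminal cells the means were 12.0 for Pdgfc, 4.34 for Pdgfa, 4.18 for Pdgfb and 0.510 for Pdgfd. After E+P they were 17.9, 3.68, 15.5 and 0.712. By mouse, Pdgfb stood at 9.92, 13.9 and 22.8 and Pdgfc at 15.8, 20.5 and 17.4 after E+P, so Pdgfb was below Pdgfc in 2 mice and above it in E+P mouse 3. tdTomato+ luminal cells had 4.71 for Pdgfc, 4.70 for Pdgfa and 2.61 for Pdgfb untreated, and 10.3, 5.06 and 6.82 after E+P.

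The sum of the ligands of receptor α (Pdgfa, Pdgfb and Pdgfc) ran from 18.9 to 24.1 CPM per kilobase in untreated GFP+ luminal cells and from 29.8 to 43.3 after E+P, and from 11.1 to 14.4 and 20.3 to 23.1 in tdTomato+ luminal cells. Treated and untreated libraries did not overlap in either luminal population. In tdTomato+ stroma the sum ran from 18.1 to 30.6 untreated and from 27.8 to 40.0 after E+P, mostly Pdgfa, which made up 63.6 to 76.5% and 78.9 to 84.7% of the 4 ligands. The ranges of tdTomato+ stroma overlapped those of GFP+ luminal cells at either treatment. GFP+ stroma, with the highest Pdgfra, held the lowest sum, 1.95 to 3.68 untreated and 1.34 to 2.38 after E+P, and Pdgfd made up 78.6 to 91.9% and 92.3 to 95.8% of its 4 ligands.

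On the receptor side, mean levels per kilobase in GFP+ stroma were 202 for Pdgfra and 114 for Pdgfrb untreated and 236 and 126 after E+P, and the ratio of Pdgfra to Pdgfrb was 1.71 to 1.88 and 1.82 to 1.93. In tdTomato+ stroma the means were 15.8 and 112.8 untreated and 6.11 and 124.02 after E+P, with a ratio of 0.0352 to 0.266 and 0.0269 to 0.0914. Pairing by population, Pdgfc and Pdgfb transcripts were luminal where Pdgfra was stromal, as was Pdgfrb, whose product also binds PDGF-B. Pdgfa was in tdTomato+ stroma and luminal cells, where its receptor was highest in GFP+ stroma. Pdgfd was highest in GFP+ stroma and lower in tdTomato+ stroma, while Pdgfrb stood at similar levels in both stromal populations. These are transcript levels, and neither protein nor binding was measured.

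**Figure D3:**
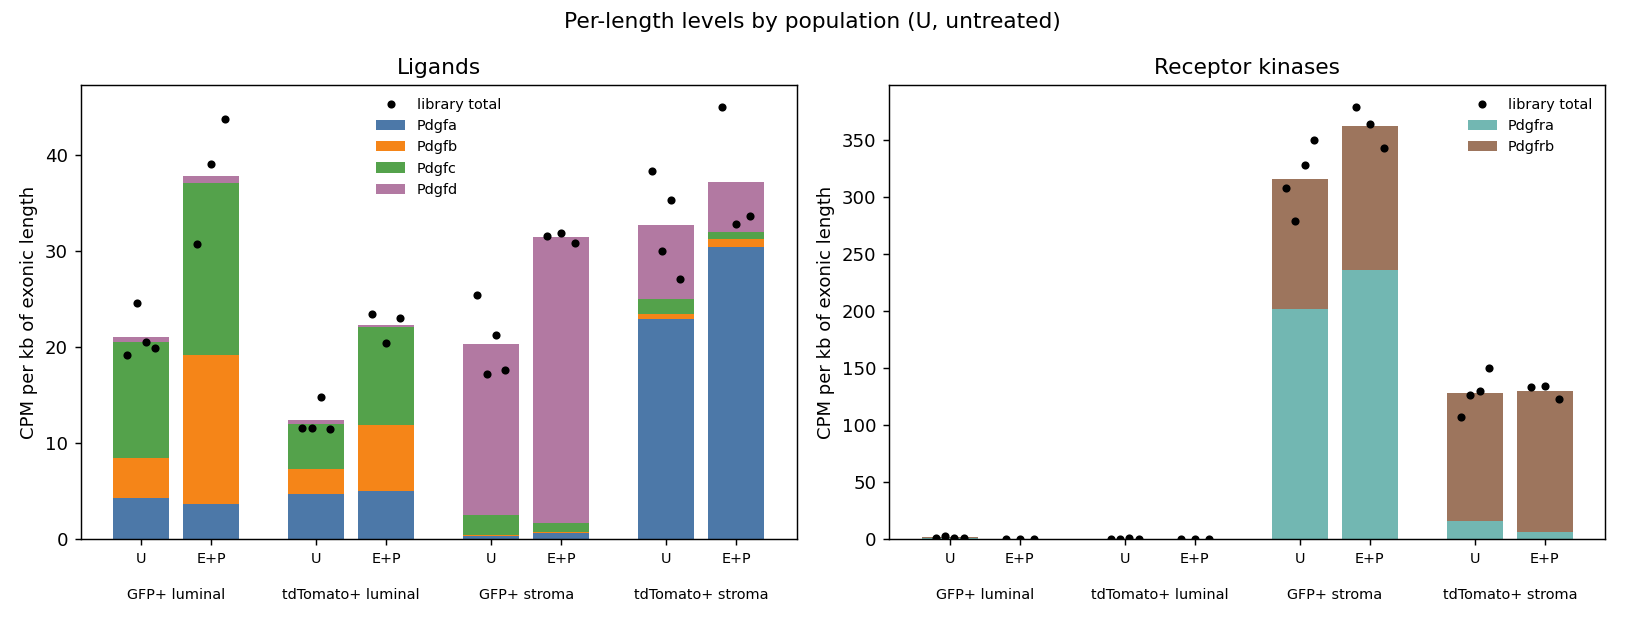
Stacked bars of the mean level per exonic length, in CPM per kilobase, of the 4 ligands and of Pdgfra and Pdgfrb in the 8 groups, with a point for the total of each library. Pdgfb of GFP+ luminal cells stands at 4.18 untreated and 15.5 after E+P, Pdgfa of tdTomato+ stroma at 22.9 and 30.4, and Pdgfra of GFP+ stroma at 202 and 236.

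Genes that process PDGFs or assist their receptors were followed as a list of 10. Between stroma and luminal cells, 8 were higher in stroma and 2 lower, where 63.5% of all genes passed in either direction, with a median log2 difference of 6.49 against 0.02 over all genes. Plat, tissue plasminogen activator, which removes the CUB domain of PDGF-C, read 511 ± 60.9 CPM in untreated GFP+ stroma (SD, n = 4) and 1.93 ± 0.818 CPM in GFP+ luminal cells, where Pdgfc was highest. It was stromal by log2 7.54 ± 0.18 and higher in GFP+ than in tdTomato+ stroma by 2.94 ± 0.13 (adjusted p = 4.27e-21 and 1.82e-11, edgeR). St14, matriptase, a protease that can activate PDGF-D, ran the other way, with 322 ± 47.0 CPM in untreated GFP+ luminal cells (SD, n = 4) and 1.07 ± 0.957 CPM in GFP+ stroma, where Pdgfd was highest (stroma minus luminal log2 -8.03 ± 0.45, adjusted p = 3.1e-13, edgeR). Plau, another protease of this list, ran as Plat did. It read 420 ± 66.5 CPM in untreated GFP+ stroma (SD, n = 4) and 19.0 ± 12.2 CPM in GFP+ luminal cells. Its stroma minus luminal contrast was larger in GFP+ than in tdTomato+ cells by 2.27 ± 0.36 (adjusted p = 1.54e-05, edgeR). Sparc, a matrix protein that binds PDGF-B, was higher in stroma by 8.74 ± 0.47 and Pcsk5, a proprotein convertase, by 7.28. Within stroma, 7 of the 10 were higher in GFP+ and 1 lower (42% of all genes passed, median 1.44 against -0.01), among them Lrp1, a co-receptor of receptor β, by 2.44 ± 0.10, while Cspg4, a pericyte proteoglycan that binds PDGF-A, stood at -2.29 ± 0.18. In luminal cells 1 was higher in GFP+ and 3 were lower (34.7% of all genes passed, median -0.36 against 0.00).

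With E+P, 1 of these 10 rose and 1 fell in GFP+ luminal cells (5.96% of all genes passed, median -0.44 against -0.03), and 2 rose and 2 fell in tdTomato+ luminal cells (14.1% of all genes, median 0.00 against -0.05). Pcsk6, a proprotein convertase, rose in both luminal populations, from 1.37 ± 1.01 (SD, n = 4) to 21.6 ± 4.31 CPM (SD, n = 3) in GFP+ cells (log2 3.90 ± 0.46, adjusted p = 0.000377, edgeR) and by 1.96 ± 0.42 in tdTomato+ cells (adjusted p = 0.00442). Furin, the convertase best known for PDGF cleavage, rose in tdTomato+ luminal cells by 1.15 ± 0.16 (adjusted p = 0.000218, edgeR) and its response differed from that of GFP+ luminal cells (GFP+ minus tdTomato+ -1.27 ± 0.23, adjusted p = 0.00505). Lrp1 fell by 2.10 on the log2 scale in tdTomato+ luminal cells (adjusted p = 0.0011, edgeR). The other gene that fell, in both luminal populations, was the co-receptor Nrp1, which is named here after its values were seen, from 1.93 ± 0.340 (SD, n = 4) to 0.478 ± 0.0669 CPM (SD, n = 3) in GFP+ cells and from 8.35 ± 2.97 to 0.985 ± 0.189 CPM in tdTomato+ cells. None of the 10 passed for E+P in either stromal population, where only 0.231% of all genes passed in GFP+ and 0.124% in tdTomato+ stroma. Pcsk6 read 143 ± 31 CPM untreated (SD, n = 4) and 43.9 ± 11.2 CPM after E+P (SD, n = 3) in GFP+ stroma. Its means in tdTomato+ stroma were 15.0 and 4.10 CPM. The E+P response of Pcsk6 differed between stroma and luminal cells by -5.59 ± 0.73 in GFP+ and -3.81 ± 0.71 in tdTomato+ cells (adjusted p = 0.000263 and 0.00117, edgeR).

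Of 28 adaptors and enzymes downstream of the receptors, 11 were higher and 11 lower in stroma (63.5% of all genes passed, median -0.07 against 0.02). Fyn, a Src family kinase, was higher by 5.08 ± 0.15. Pik3cb, a catalytic subunit of PI3 kinase, stood at -4.50 ± 0.11, with -5.66 ± 0.16 in GFP+ and -3.33 ± 0.14 in tdTomato+ cells. Within stroma 9 were higher and 7 lower in GFP+ cells (42% of all genes passed), and Gab1, a docking adaptor, stood at -2.23 ± 0.12 there and at 1.69 ± 0.13 in GFP+ minus tdTomato+ luminal cells (adjusted p = 1.15e-10 and 9.43e-07, edgeR). With E+P, 0 passed in GFP+ luminal cells (5.96% of all genes) and 5 rose and 2 fell in tdTomato+ luminal cells (14.1% of all genes), including Hras (0.91 ± 0.13) and Pik3cb (0.72 ± 0.14), while Gab1 fell by 0.75. Hras was the only 1 of the 28 whose response differed between the luminal populations (-0.92 ± 0.18, adjusted p = 0.00864, edgeR). None passed in stroma, where 0.231% of all genes passed in GFP+ and 0.124% in tdTomato+ cells.

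Of 11 negative regulators, 6 were higher and 4 lower in stroma (63.5% of all genes passed, median 0.33 against 0.02). The Sprouty genes, inhibitors of Ras signaling that growth factors induce, were among the higher ones, with Spry4 at 3.67 ± 0.18, Spry2 at 2.504 ± 0.12 and Spry1 at 2.34 ± 0.13. Within stroma 3 were higher and 6 lower in GFP+ cells (42% of all genes passed, median -0.57 against -0.01), and Spry4 read 34.8 ± 2.96 CPM in the GFP+ stroma of untreated mice and 242 ± 56.0 CPM in their tdTomato+ stroma (SD, n = 4), a log2 difference over both treatments of -2.498 ± 0.14 (adjusted p = 1.06e-10, edgeR). With E+P, 1 of the 11 rose and 1 fell in GFP+ luminal cells (5.96% of all genes passed), and 3 rose and 1 fell in tdTomato+ luminal cells (14.1% of all genes). Ptprj, a phosphatase of PDGF receptor β, was the one that fell in both (-0.81 ± 0.14 and -0.64 ± 0.14, adjusted p = 0.00237 and 0.00435, edgeR). Spry1 and Cblb, a ubiquitin ligase, rose in tdTomato+ luminal cells (1.19 ± 0.22 and 1.03 ± 0.20, adjusted p = 0.00149 and 0.00247, edgeR). None of the 11 passed in either stromal population, where 0.231% of all genes passed in GFP+ and 0.124% in tdTomato+ stroma.

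**Figure D4:**
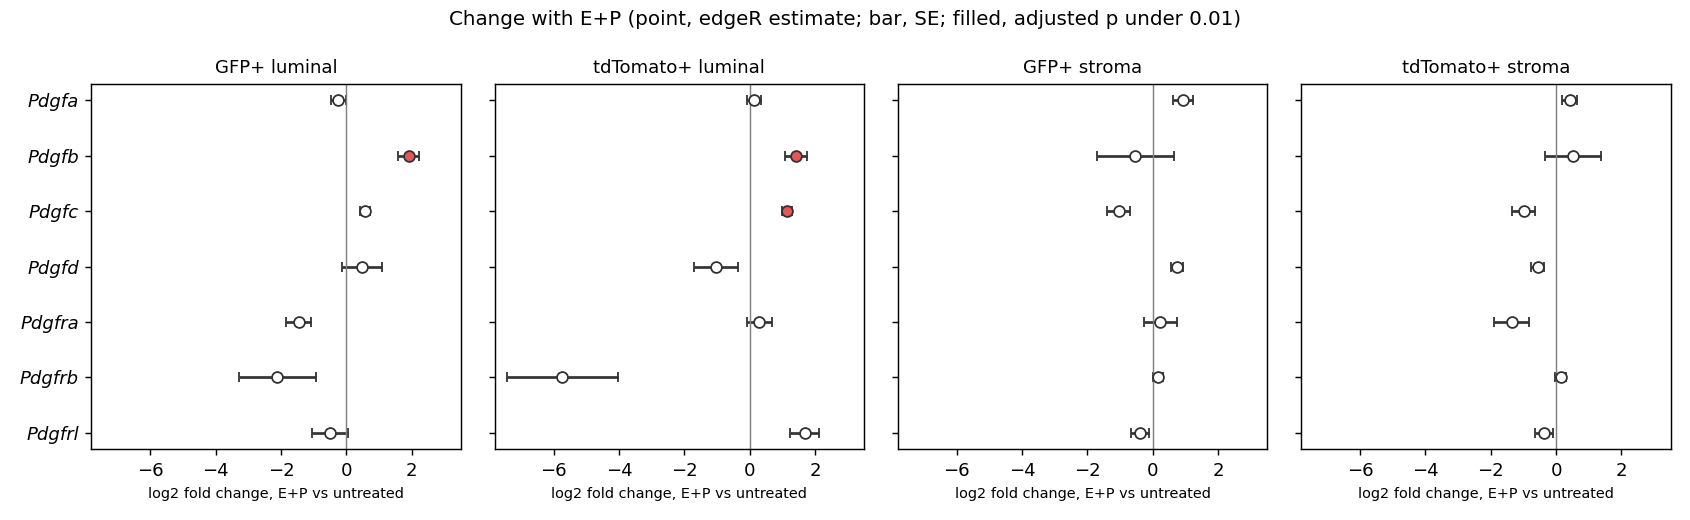
Log2 fold change, E+P minus untreated, with its standard error, of the 7 PDGF genes in each of the 4 populations, from edgeR. The filled points, past adjusted p < 0.01, are Pdgfb in both luminal populations and Pdgfc in tdTomato+ luminal cells, and no point of either stromal population is filled.

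The genes whose log2 CPM ran most like each PDGF gene over the 28 libraries were sought among 11390 genes, and are given as a description, since the libraries share mice and lineages. Pdgfa ran closest to Notch3 (r = 0.951), then to Midn (0.946) and Stk11 (0.945). Notch3, a pericyte and smooth muscle gene, stood at a mean of 827 CPM in the tdTomato+ and 24.8 CPM in the GFP+ stroma of untreated mice. It also stood at means of 114 to 156 CPM in the luminal groups. Pdgfb ran closest to Slc9a3r1 (0.962), an adaptor that binds PDGF receptors, and Crybg1 (0.962), and Pdgfc to Muc15 (0.954), Tmtc4 (0.949) and Irx2 (0.948). Pdgfd ran closest to Hspg2 (0.978), the proteoglycan perlecan, and Plat (0.977), Pdgfra to the fibroblast proteoglycan Lum (0.988) and Mmp3 (0.987), Pdgfrb to Aoc3 (0.994), Prrx1 (0.993) and Zeb2 (0.993), and Pdgfrl to Man2a2 (0.948) and Dbn1 (0.940).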

How the data were processed

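The authors deposited raw read counts per gene for 28 libraries, made with a stranded low-input total RNA kit and, per the labels and methods, STAR 2.5.2a on GRCm38.p5 with a GENCODE annotation. The annotation release and the strand column counted are not given in the sources used here. Symbols, coordinates and exonic lengths were taken from GENCODE M21, in which 50376 of 50600 gene IDs were found. Groups came from sample titles. Populations with the same number and treatment came from the same mouse, and their deviations from group means correlated by 0.103 on average within a lineage (-0.0399 between different mice). A number shared by an untreated and an E+P mouse pairs nothing.

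Counts were scaled by TMM and filtered with filterByExpr, and quasi-likelihood tests with robust dispersions were run in edgeR 4.0.16 (R 4.3.3), with Benjamini-Hochberg adjustment over all genes and a threshold of 0.01. Within-lineage contrasts used the 14 libraries of a lineage (17783 genes in stroma, 16538 in luminal cells), and contrasts between lineages used all 28 (19569 genes). SE is the absolute log2 fold change over the square root of F. log2 CPM used a prior count of 2. Exact permutation tests were two-sided. Limits of detection cover counting error only, and reads without molecular identifiers are not independent molecules. Alternatives were other scalings, DESeq2 1.42.0, limma-voom 3.58.1, no filter, other sets of groups in the model, a replicate block and leaving out each mouse. Scripts were checked on simulated data. Promoter sequences came from RefSeq (GRCm38.p6), where 4 of the 7 genes matched. The windows of Pdgfa overlap exons and were not printed. The 7 genes and the lists were chosen with earlier results of these data known. In lists, the up to 4 genes named per comparison are those past the threshold with the largest changes and with 10 CPM or more on average where higher, with exceptions stated; results for some genes of the lists are not reported here.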

Additional observations from a re-analysis of the deposited data

Results flagged for a closer look

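Among 28 groups of 4 untreated libraries tested for a library standing apart from the other 3, 5 gave one, where chance gives about 1 in 20. Pdgfb in GFP+ stroma was 0.69737 CPM (9 counts) in the second mouse against 0 to 0.0757 in the others, and in tdTomato+ stroma it was 0.38842 CPM (4 counts) in the fourth mouse against 2.80 to 3.04. Pdgfc stood at 15.962 CPM in GFP+ stroma and at 17.887 CPM in tdTomato+ luminal cells of the second mouse, above and below the other 3 mice. Pdgfrb stood at 4.5535 CPM (63 counts) in the tdTomato+ luminal library of the third mouse, in which skeletal muscle markers summed to 23.2 CPM and fibroblast markers to 69.4 CPM. The part of other cell types in these values was not tested.

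Of 35 tests of whether a contrast differed between populations or lineages, 5 passed by edgeR (adjusted p < 0.01). The stroma minus luminal contrast differed between GFP+ and tdTomato+ cells by -5.38 for Pdgfa, -4.98 for Pdgfb, 3.32 for Pdgfra and 4.04 for Pdgfrl on the log2 scale. In that comparison 33.2% of all genes passed. The difference for Pdgfra is tied to the sort. The E+P response of Pdgfc differed between tdTomato+ stroma and luminal cells by -2.13, where 4.65% of all genes passed. No PDGF gene passed in the other contrasts of E+P responses. Of all genes, 0.045% passed there between the stromal populations, 2.27% between the luminal populations and 0.92% between lineages of GFP+ cells.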

How the results depend on the processing

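Calls for E+P moved most with the method. As a percent of the genes tested in the reported analysis, those called in GFP+ luminal cells were 5.96, against 12.3 by DESeq2, 3.39 with only the 2 groups compared, 15 at adjusted p < 0.05 and 1.02 to 5.82 without any 1 mouse. In tdTomato+ luminal cells they were 14.1, against 21.5 by DESeq2, 26.9 at 0.05 and 6.89 to 13 without any 1 mouse. In GFP+ stroma they were 0.231, against 1.08 by DESeq2, 0.545 by limma-voom, 2.58 with no low-count filter, 1.05 with only the 2 groups, 0.709 at 0.05 and 0.09 to 0.259. In tdTomato+ stroma they were 0.124, against 0.191 with library size only, 2.16 by DESeq2, 0.045 by limma-voom, 4.72 with no filter, 0.253 with the replicate block, 0.517 with all 8 groups in one model, 0 with only the 2 groups (edgeR, where 1715 genes had an unadjusted p under 0.05), 0.804 at 0.05 and 0.00562 to 0.478. For differences of E+P responses, GFP+ minus tdTomato+ stroma gave 0.045 (0.624 by DESeq2, 0.0169 by limma-voom, 2.85 with no filter, 0.0731 with the replicate block, 0.242 at 0.05, 0.00562 to 0.0731 without any 1 mouse) and the same in luminal cells 2.27 (6.13 by DESeq2, 6.58 at 0.05, 0.2 to 1.9). The E+P response of stroma minus luminal cells gave 0.92 in GFP+ cells (3.18, 3.31 and 0.0409 to 1.08) and 4.65 in tdTomato+ cells (8.42, 10.7 and 1.8 to 4.65). The replicate block changed the call of none of the 7 PDGF genes in any comparison. Its term was the mouse, except for E+P against untreated within a population, where each mouse has 1 treatment and the term was the replicate number, which pairs no mice there.

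Values that were not called and turned sign were Pdgfrb between the stromal populations (0.00, against -0.04302 with DESeq2 size factors and by DESeq2, -0.06606 with library size only and -0.04383 to 0.06003 without any 1 mouse), Pdgfa for E+P in tdTomato+ luminal cells (0.13, against -0.0819 with library size only and -0.1899 to 0.3113) and Pdgfb for E+P in GFP+ stroma (-0.54, against 0.2846 by limma-voom and -1.517 to 2.041). Leaving out 1 mouse also turned Pdgfrl for E+P in GFP+ luminal cells (-1.176 to 0.1746). It turned, for the E+P response of GFP+ minus tdTomato+ stroma, Pdgfb (-2.005 to 1.428), Pdgfc (-0.4211 to 0.3462), Pdgfrb (-0.09128 to 0.1106) and Pdgfrl (-0.2742 to 0.2519). For the E+P response of stroma minus luminal cells, it turned Pdgfb (-2.984 to 0.03555), Pdgfd (-0.3395 to 0.6133) and Pdgfrl (-0.4025 to 0.6543) among GFP+ cells. Among tdTomato+ cells it turned Pdgfd (-0.06416 to 1.549) for the same response. The causes were not tested. Scaling by library size only shifted the median of all genes by -0.388 in the GFP+ stroma minus luminal contrast and by -0.289 in stroma minus luminal, where it alone called Pdgfa.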

Other observations

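Other receptor tyrosine kinases of the PDGF receptor class, and the related VEGF family, were counted in the same fits. Kit, the receptor of stem cell factor, was luminal, with 905 ± 179 CPM in the GFP+ and 185 ± 84.0 CPM in the tdTomato+ luminal cells of untreated mice (SD, n = 4), a log2 difference between these populations over both treatments of 2.76 ± 0.28 (adjusted p = 1.15e-05, edgeR). Of the 6 genes of this list that were tested, 3 were higher and 1 lower in stroma (63.5% of all genes passed, median 1.06 against 0.02), and with E+P 0 passed in GFP+ luminal cells (5.96% of all genes) and 1 rose and 1 fell in tdTomato+ luminal cells (14.1% of all genes). Of 8 VEGF family genes, 7 were higher in stroma and 0 lower (63.5% of all genes passed, median 2.34 against 0.02). With E+P, 1 of the 6 tested in luminal cells fell in GFP+ luminal cells (5.96% of all genes passed), and 0 passed in tdTomato+ luminal cells (14.1%). In either stromal population 0 passed, where 0.231% of all genes passed in GFP+ and 0.124% in tdTomato+ stroma.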
